A study of Mus musculus with 15 samples.

Results

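*Cdr1* (cerebellar degeneration-related antigen 1) is a single-exon gene of the mouse X chromosome that was followed here as 1 gene of the 23235 in an RNA-seq table of mouse cortex, and as 1 locus in the peak lists of a chromatin isolation by RNA purification (ChIRP) experiment. It was chosen by its identifier, because of its level in the 4 groups of the table and the size of its change beside genes of like abundance and length, so those values are a description and carry no test. The gene is annotated on the minus strand at chrX:58436421-58438733 (mm9, identifier ENSMUSG00000090546.1). Its 2313 bases hold a coding sequence of 1551 bases, or 517 codons, and a 3′ UTR of 762 bases.

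The study asked what the host gene RNA of the *Snord116* cluster, *116HG*, a long non-coding RNA of the Prader-Willi locus, does in the brain. RNA-seq was done on cortices of adult male mice in 4 groups: wild type (WT) C57BL/6J at Zt+6 (3 mice) and at Zt+16 (2 mice), and *Snord116del* (+/-), strain B6(Cg)-Snord116tm1.1Uta/J with the deletion inherited from the father, at Zt+6 (2 mice) and at Zt+16 (2 mice). Zeitgeber time (Zt) starts when the lights go on, so Zt+6 lies in the light and Zt+16 in the dark. ChIRP, in which biotinylated oligos pull down an RNA with the chromatin bound to it, was done on adult brain hemispheres with *116HG* oligos in WT (2 libraries) and *Snord116del* (1 library), and with non-specific control (NSC) oligos in each genotype (1 library each).

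The antigen encoded by *Cdr1* was first described through antibodies of patients with cerebellar degeneration. In brain the locus is better known for its other strand, from which the circular RNA Cdr1as (also ciRS-7) is made. Cdr1as carries many binding sites for the microRNA miR-7 and a site at which miR-671 directs its cleavage, and it is abundant in excitatory neurons. The sources used here do not state whether reads were counted by strand. Reads from *Cdr1* and from the RNA opposite it can therefore not be told apart in the table, and every *Cdr1* value below is the value of the table's *Cdr1* row and not a level of either RNA alone. The circular RNA was matched to no row and is given no value.

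The seeds and their matches at the locus are shown first, because they mark which strand holds the known microRNA sites. The mature microRNAs are printed 5′ to 3′ as RefSeq (GRCm38.p6) gives them, with the seed, bases 2 to 8, in capitals:
mmu-miR-7a-5p: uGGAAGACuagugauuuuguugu
mmu-miR-7b-5p: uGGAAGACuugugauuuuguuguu
mmu-miR-671-5p: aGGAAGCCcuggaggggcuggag
Both miR-7 sequences share 1 seed, and that of miR-671 differs from it. The complement of the miR-7 seed, GTCTTCC, was searched on both strands of the 2313 bases, counting overlapping matches. It was found 112 times on the strand opposite *Cdr1* (48.4 per kb) and 0 times on the strand of *Cdr1*. Among 19833 protein-coding genes with a longest transcript of at least 500 bases, *Cdr1* was first both by the number of matches on the opposite strand and by their density. The next gene by number was *Ttn* with 15, the next by density was *Naf1* with 4.01 per kb, and 29.8% of these genes had any match on the opposite strand and 24.5% any on their own.

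Of the matches opposite *Cdr1*, 30 were followed by an A, the base that faces the first base of the microRNA. Non-overlapping stretches of the peak interval described below were ranked by paired bases, for miR-7a-5p only those with the whole seed match. The first 5 are read on the plus strand of chromosome X (mm9), with both sequences laid end to end and paired bases in capitals:
chrX:58436746-58436768: tCcAgAAAAatcCaAGTCTTCCA
chrX:58436708-58436730: tCcAgAAAAattCatGTCTTCCA
chrX:58436898-58436920: tCcAgAAAAatcCagGTCTTCCA
chrX:58437207-58437229: tCctgAAAATCcaccGTCTTCCA
chrX:58436650-58436672: tCcAggAAAatctTtGTCTTCCA
The first paired at 16 of 23 bases, the next 3 at 15 and the last at 14. The site at chrX:58437207-58437229 lies opposite the coding sequence and the other 4 lie opposite the 3′ UTR. For miR-671-5p no seed match was required. Its best match in that interval lies upstream of the annotated start of *Cdr1*, on the same plus strand, and pairs at 19 of 23 bases, in capitals:
chrX:58439204-58439226: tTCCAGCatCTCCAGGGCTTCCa

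**Figure D1:**
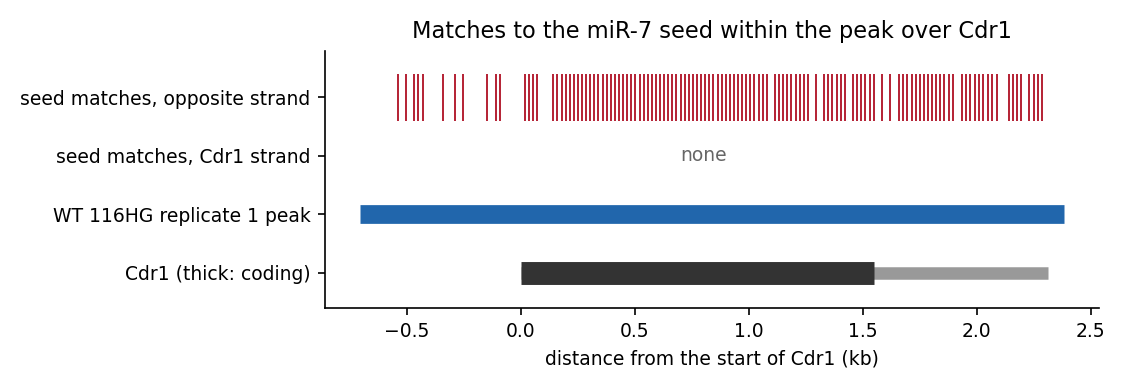
Position of each match to the miR-7 seed (red ticks) by strand along the peak of WT *116HG* replicate 1 that covers *Cdr1*, with the distance from the start of *Cdr1* in kb on the horizontal axis; the dark bar is the coding sequence and the grey bar the 3′ UTR. All 123 matches within the peak, 112 of them inside the gene, lie on the strand opposite *Cdr1*.

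*Cdr1* was listed at 25.3 FPKM (mapped fragments scaled to transcript length and library size, a level per length) in WT and at 301 FPKM in *Snord116del* at Zt+6, and at 1.46 FPKM in WT and 3.13 FPKM in *Snord116del* at Zt+16. Both Zt+6 values lay far above both Zt+16 values, and the *Snord116del* value lay above the WT value at each time. From highest to lowest the order was *Snord116del* Zt+6, WT Zt+6, *Snord116del* Zt+16 and WT Zt+16. The table holds 1 value per group and no spread between mice, so which neighbours in this order differ beyond the spread was not tested here. The authors' q-values between the genotypes were not used, and every difference below is given without a test. Nor can fewer cells that express the RNA be told apart from less RNA per cell in such bulk samples.

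The highest of the 4 values was 206 times the lowest. On the log2(FPKM + 1) scale the range was 6.94, which placed *Cdr1* at 8 among the 10297 tested genes, those whose mean over the groups reached 1 FPKM. By level *Cdr1* stood at place 903 of the 23235 genes in WT Zt+6 and at place 49 in *Snord116del* Zt+6, and at places 7236 and 5875 in WT and *Snord116del* Zt+16. Among the 325 tested genes of chromosome X it was 38th, 3rd, 225th and 182nd in the same order. *Cdr1* thus passed from among the most abundant rows of the table in *Snord116del* at Zt+6 to a level in both Zt+16 groups that was below the group's median over the tested genes, which was 2.90 FPKM in WT and 4.00 FPKM in *Snord116del*.

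**Figure D2:**
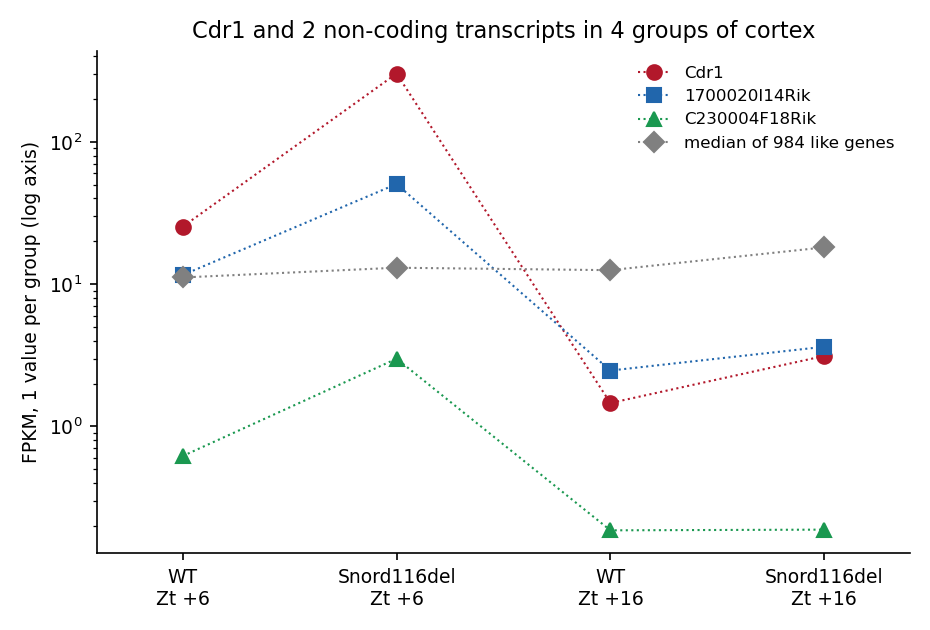
FPKM of *Cdr1* and of the non-coding transcripts *1700020I14Rik* and *C230004F18Rik* in each of the 4 groups, with the median FPKM of the 984 genes of like abundance and length, on a log axis; each point is the 1 deposited value of a group and dotted lines only join points of 1 gene. *Cdr1* went from 25.3 to 301 FPKM at Zt+6 and from 1.46 to 3.13 FPKM at Zt+16, while the median of the like genes lay between 11.1 and 18.1 FPKM.

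At Zt+6, the comparison that addresses the effect of the deletion in the light, *Cdr1* was 11.9-fold higher in *Snord116del* than in WT. On the log2(FPKM + 1) scale, which understates the change of low genes, the difference was 3.52. A tested gene was counted as higher or lower when its FPKM + 1 differed 1.5-fold or more and the higher group reached 1 FPKM. At Zt+6 56.9% of tested genes passed this rule, 49.3% higher and 7.62% lower in *Snord116del*, so that passing it upward was common in this comparison, and the median difference over all of them was 0.57. What set *Cdr1* apart was the size: its difference was the 4th highest of the 10297. The genes above it were *Mir1966*, *Mir199b* and *Snora44*, small RNA genes listed at 0 in WT Zt+6. None of the 324 other genes of chromosome X had a higher difference, and 170 X genes, *Cdr1* included, were past the rule upward (52.3%).

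Like genes were those with a mean WT FPKM within 2-fold of the 13.4 FPKM of *Cdr1* and a longest transcript within 1.5-fold of its length. There were 984, with means between 6.70 and 26.8 FPKM. At Zt+6 all 984 had a lower difference than *Cdr1*. Their median was 0.17 on the log2 scale, with 257 past the rule upward and 77 downward. The highest among them were *Ntm* (neurotrimin, an adhesion molecule of neurons) at 1.68, *Dstn* (destrin, an actin-severing protein) at 1.68, *Slc25a23* at 1.62, *Pls3* (plastin 3, an actin bundler) at 1.62 and *Tax1bp1* at 1.60, so that the like gene nearest to *Cdr1* lay 1.84 below it. Among the lowest were *Egr4* (an immediate early transcription factor) at −1.89, *Hist2h4* (a histone) at −1.61, *Doc2g* at −1.54 and *Esrra* (a nuclear receptor of mitochondrial genes) at −1.46.

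At Zt+16 the *Cdr1* value was 2.14-fold higher in *Snord116del* than in WT, a difference of 0.75 on the log2(FPKM + 1) scale. This passed the 1.5-fold rule, as did 19.2% of tested genes, 19.0% upward and 0.204% downward, with a median of 0.35 over all genes. *Cdr1* was at place 768 of 10297. Of the like genes 843 of 984 (85.7%) had a lower difference, with a median of 0.50 and a highest value of 1.29 for *Ndn* (necdin, a paternally expressed gene of the Prader-Willi region). On chromosome X 13 genes lay above it. The call at Zt+16 was lost under 7 of 8 other settings: with each group scaled to the same median, for example, the difference was 0.44, under the 0.58 that 1.5-fold is on this scale. Both values were also low, at a level where all 984 like genes were higher in each of these groups. The difference at Zt+6 exceeded that at Zt+16 by 2.78 on the log2 scale, the 11th highest value of 10297 genes, against a highest value of 1.45 among the like genes; this gap has no test.

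**Figure D3:**
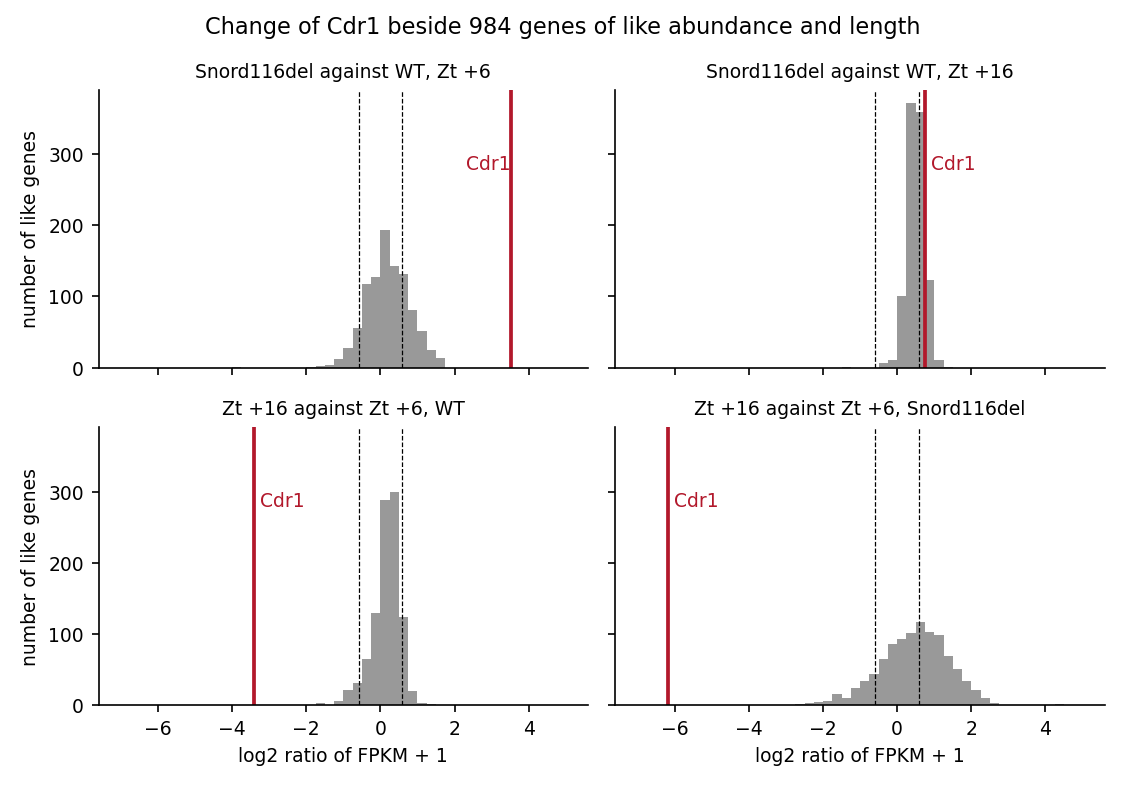
Histograms of the log2 ratio of FPKM + 1 for the 984 genes of like abundance and length in each of the 4 comparisons, with *Cdr1* as a red line and the 1.5-fold limits as dashed lines. *Cdr1* lies outside the whole distribution at 3.52 for *Snord116del* against WT at Zt+6 and at −3.42 and −6.20 for Zt+16 against Zt+6, and inside it at 0.75 for *Snord116del* against WT at Zt+16.

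Between the times, *Cdr1* was 17.3-fold lower at Zt+16 than at Zt+6 in WT (log2 difference −3.42) and 96.4-fold lower in *Snord116del* (−6.20). Of all tested genes 16.0% passed the rule in WT, 10.3% lower and 5.71% higher at Zt+16, and 64.0% passed it in *Snord116del*, 39.1% lower and 25.0% higher. *Cdr1* had the 9th lowest value of 10297 genes in WT and the 3rd lowest in *Snord116del*, and lay below all 984 like genes in both. The like genes had a median of 0.20 in WT and 0.52 in *Snord116del*, and the nearest of them were *C030046I01Rik* at −1.66 in WT and *Nell2* at −2.69 in *Snord116del*. The 8 genes with a lower value in WT were the microRNA and snoRNA rows *Mir3062*, *Mir133a-2*, *Mir124a-2*, *Mir669a-3*, *Mir214*, *Snora64* and *Mir1188*, and *Atp6v0c* (a subunit of the vacuolar proton pump), which were listed at 0 in WT Zt+16. These 4 comparisons share their groups in pairs and are not independent of each other. The 2 times also differ in how the mice were recorded: the labels name an earlier version of the table for 2 of 2 *Snord116del* and 1 of 3 WT mice at Zt+6 and for 0 of 4 mice at Zt+16. Whether they were also handled as separate batches is not given, and time and any such batch cannot be told apart. At Zt+6 the share of such labels also differed between the genotypes, so any such batch would be partly confounded with genotype there.

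In the reference, the 2313 bases of *Cdr1* had a low GC content and many repeated stretches. The GC content was 43.1%, against a median of 52.9% in the 858 like genes with a value, 65 of which were lower. Of the 2282 stretches of 32 bases that begin in the gene, 63.9% occurred once in the genome, and the 823 others recurred only inside the peak interval over *Cdr1* described below, up to 15 times. The repeats can be seen in the 300 bases around the start of *Cdr1* in RefSeq (250 before and 50 after it), which lie at chrX:58438684-58438983 of mm9 on the minus strand and are shown with GGAAGAC, the seed of miR-7 and so the complement of its match, in capitals:
*Cdr1* promoter: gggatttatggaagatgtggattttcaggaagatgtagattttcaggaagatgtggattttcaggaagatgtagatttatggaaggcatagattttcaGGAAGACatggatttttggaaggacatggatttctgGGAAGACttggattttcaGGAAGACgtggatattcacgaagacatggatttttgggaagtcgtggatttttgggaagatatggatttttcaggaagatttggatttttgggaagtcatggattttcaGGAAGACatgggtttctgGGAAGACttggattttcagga
The 7 letters occurred 5 times here on the strand of *Cdr1*, and GTCTTCC, their complement, occurred 0 times on it. Of 32851 promoters of this length 2.70% held GGAAGAC on the strand of their gene and 5.32% on either strand, and the highest number in any other was 3. A match is a description of letters and not evidence of binding.

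The ChIRP lists held a broad, strong peak over *Cdr1* in 1 of the 5 libraries. In WT *116HG* replicate 1 the interval chrX:58436351-58439436, 3086 bases wide, covered all 2313 bases of the gene and extended 70 bases past its 3′ end and 703 bases past its start. Its fold over input, the authors' own value, was 434, against a median of 55.3 in that list, and its width compared with a median of 157 bases. Of the 78033 peaks of the list it was 193rd by fold and 75th by width, and of the 2976 on chromosome X 12th and 3rd. The interval holds the miR-671 match upstream of *Cdr1*, the whole of the 300 bases printed above, and 11 seed matches beyond the 112 in the gene, all on the opposite strand.

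No peak lay within 100 kb of *Cdr1* in the other 4 lists. The nearest was 308.5 kb away in WT *116HG* replicate 2, 670.6 kb in WT NSC, 1395.5 kb in *Snord116del* *116HG* and 783.2 kb in *Snord116del* NSC. The peak was thus found in 1 of 2 WT *116HG* libraries. These lists are also much shorter, with 11145, 3648, 1280 and 3418 peaks in the same order, and on chromosome X 1439, 1369, 85 and 188. A peak somewhere in replicate 1 was the rule for expressed genes: 91.3% of the 10165 tested genes with an annotation and 99.2% of the like genes had one, against 15.8% and 8.74% in replicate 2, 2.31% and 1.02% in WT NSC, 2.63% and 1.93% in *Snord116del* *116HG*, and 9.46% and 8.84% in *Snord116del* NSC. The size of the *Cdr1* peak was less usual. Only 4 of the 984 like genes had a peak of higher fold and 1 a wider peak, and 70 of the 10165 genes had a wider one (0.689%).

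Within 100 kb replicate 1 held 34 further peaks, with fold values of 22.4 to 184.7 (median 41.0) and widths of 83 to 1448 bases. All were lower and narrower than that on *Cdr1*. Of these, 6 lay within 2 kb of the gene, and 27 overlapped *C230004F18Rik*.

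**Figure D4:**
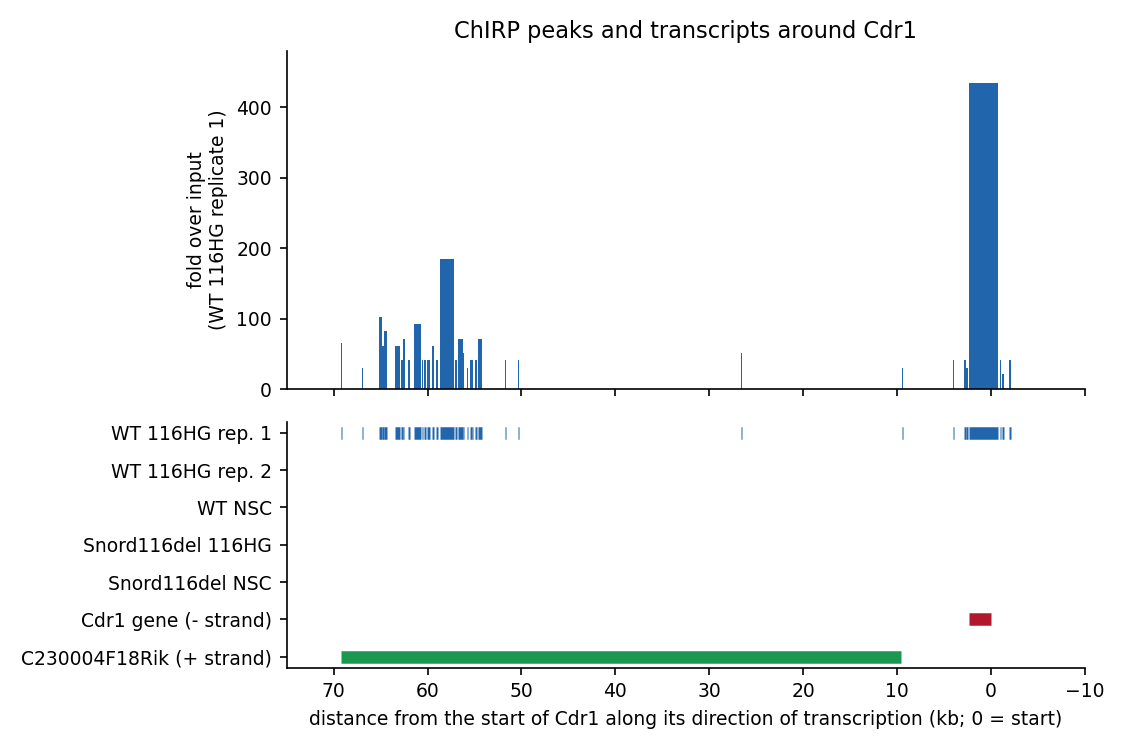
Peaks around *Cdr1* by distance from its start in kb along its direction of transcription. The upper panel gives the fold over input of each WT *116HG* replicate 1 peak as a bar as wide as the peak (at least 0.15 kb); the lower panel gives the peaks of all 5 lists and the spans of *Cdr1* and *C230004F18Rik*. Replicate 1 has its highest peak, at 434-fold, over *Cdr1* and a second cluster over *C230004F18Rik*, and the other 4 lists have no peak in this window.

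*C230004F18Rik*, a long non-coding RNA gene, is the nearest annotated gene, on the plus strand 7.255 kb from *Cdr1*. RefSeq lists the name as a synonym of *Cdr1os*, to which it also assigns Cdr1as. It was listed at 0.619 FPKM in WT and 2.99 FPKM in *Snord116del* at Zt+6, and at 0.186 and 0.188 FPKM at Zt+16. The order of the Zt+6 and Zt+16 values was that of *Cdr1*, with a log2 difference of 1.30 between genotypes at Zt+6 and 0.0025 at Zt+16, at levels far below those of *Cdr1*. Its mean was under 1 FPKM, so the fold rule was not applied to it. Of the 26 other gene names annotated within 1 Mb, 6 were in the table. Of these, *Sox3* (a transcription factor of neural progenitors) lay between 0.198 and 0.306 FPKM and *Ldoc1* between 0.443 and 1.22 FPKM, with their lowest and highest values in other groups than those of *Cdr1*. *Gm7073* was at most 0.034 FPKM and *Mir505* was listed at 0 in all 4 groups.

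The genes with the pattern most like *Cdr1* over the 4 groups were found by the Euclidean distance between log2(FPKM + 1) values, each gene centred on its own mean. This likeness rests on 4 points, which are group values, and the median distance over 10296 genes was 5.13. The nearest was *Snhg11*, a snoRNA host gene of neurons, at a distance of 1.07, which was listed at 25.8 and 138.6 FPKM at Zt+6 and at 2.01 and 2.87 FPKM at Zt+16, in WT and *Snord116del*. *Malat1*, an abundant nuclear long non-coding RNA, followed at 1.5, with 101.9, 432.6, 10.6 and 21.2 FPKM in the same order. Then came *Nckap1* (a regulator of actin assembly) at 1.90, *Sv2a* (a synaptic vesicle protein) at 1.91, *Atp6v0c* at 2.19, the imprinted gene *Peg3* at 2.29, *Tmem30a* (a subunit of phospholipid flippases) at 2.30 and *Snora64*, a snoRNA listed at 0 in both Zt+16 groups, at 2.38. In these 8 genes, as in *Cdr1*, *Snord116del* Zt+6 was the highest group, which follows in large part from their choice by these same values.

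**Figure D5:**
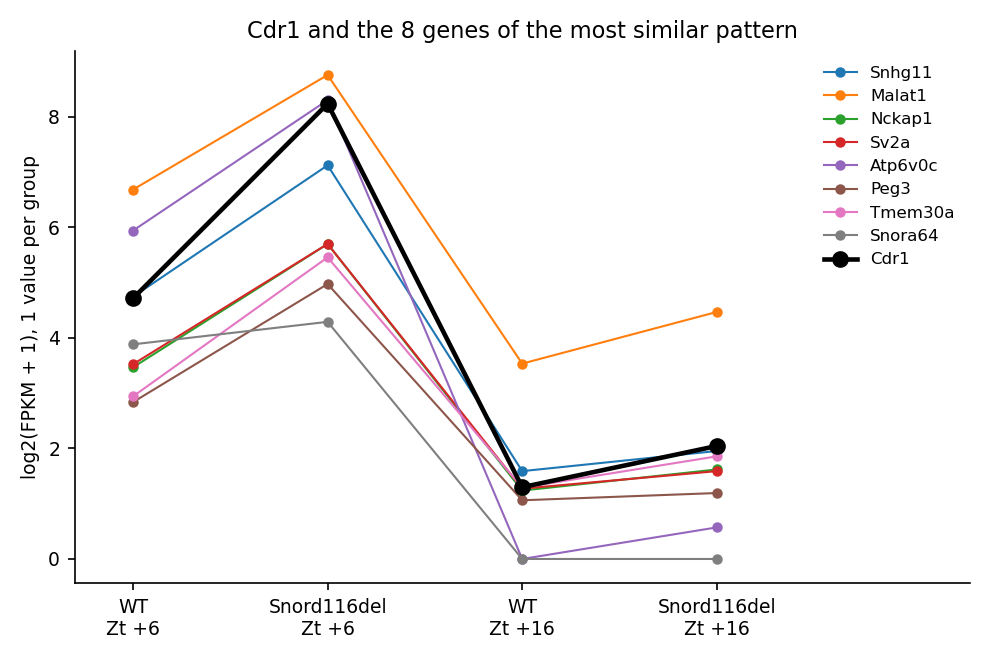
Level of *Cdr1* (black) and of the 8 genes with the smallest distance to its pattern, as log2(FPKM + 1), in the 4 groups; each point is the 1 value of a group. All peak in *Snord116del* Zt+6, in large part because they were chosen by these values, and *Cdr1* has a range of 6.94 on this scale.

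The replicate 1 list, a separate readout from another tissue sample, held broad coverage on most of these genes. The share of exon bases under replicate 1 peaks was 100% for *Cdr1*, 98.7% for *Snhg11*, 98.8% for *Malat1*, 97.7% for *Tmem30a*, 95% for *Peg3*, 94.9% for *Sv2a* and 91.7% for *Nckap1*, and 36.4% for *Atp6v0c* and 0% for *Snora64*. Thus 6 of the 8 were over 90%, compared with 459 of 10165 tested genes (4.52%) and 51 of 984 like genes (5.18%). None of the 8 had a peak in replicate 2 or in the 3 control lists. The share under replicate 1 peaks moved with transcript level. With the genes split into 4 equal bins from the lowest to the highest WT Zt+6 FPKM, its median was 7.23%, 17.2%, 32.5% and 62.9%, and 0.0787%, 0.0394%, 1.30% and 16.6% of genes were over 90%. The part of transcript level in these counts was not tested further.

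The known partners of the locus were read from a list of 10 genes of the miR-7 and miR-671 network, 8 of which were in the table and 3 of which were tested. The microRNA rows *Mir7-1*, *Mir7-2*, *Mir7b* and *Mir671* were listed at 0 in all 4 groups; the table therefore gives no level of the microRNAs themselves. *1700020I14Rik*, the long non-coding RNA also known as Cyrano, which binds miR-7 and directs its decay, was past the rule upward at Zt+6. It was listed at 11.6 FPKM in WT and 50.5 FPKM in *Snord116del* at Zt+6, and at 2.47 and 3.63 FPKM at Zt+16, and by pattern it stood next after the 8 genes named above, at 2.40. Replicate 1 peaks covered 93.0% of its exon bases. The host genes did not share this pattern: *Hnrnpk*, whose intron holds a miR-7 gene, was listed at 18.5, 25.7, 19.9 and 23.5 FPKM, and *Chpf2*, host of miR-671, at 3.37, 2.97, 4.81 and 5.58 FPKM, in WT Zt+6, *Snord116del* Zt+6, WT Zt+16 and *Snord116del* Zt+16. They were at places 5794 and 8397 of 10296 by distance to *Cdr1*, and neither passed the rule between the genotypes.

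Of 14 described miR-7 targets, 10 were tested. Between the genotypes at Zt+6, where 49.3% of all genes were higher, 5 of the 10 were higher and 1 lower, with a median of 0.74 beside 0.57 over all genes. Among those higher in *Snord116del* were *Irs2* (an adaptor of the insulin receptor; 2.87 to 10.9 FPKM), *Tnk2* (a tyrosine kinase; 3.68 to 12.6 FPKM), *Pak1* (a kinase of the actin cytoskeleton; 16.7 to 38.9 FPKM) and *Set* (7.65 to 15.6 FPKM). The immediate early gene *Fos* was listed at 13.1 and 8.80 FPKM, *Nr4a3* at 11.8 and 11.5 FPKM, *Ube2a* at 1.93 and 3.32 FPKM and *Rela* at 2.22 and 2.31 FPKM. *Irs1*, *Egfr*, *Klf4* and *Pax6* were below the mean of 1 FPKM. At Zt+16 0 of the 10 passed the rule, beside 19.2% of all tested genes. The targets thus included both directions at Zt+6, and none approached the 3.52 of *Cdr1*.

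Other lists tied to RNAs of this kind were higher at Zt+6 in most members, in a comparison where 49.3% of all tested genes were higher and their median difference was 0.57. All 10 tested genes of the microRNA silencing machinery were higher (median 0.99), among them *Drosha* (9.20 to 16.9 FPKM), which cuts primary microRNAs. Of 7 factors known to act on circular RNA formation 5 were higher (median 1.10), led by *Qk* (quaking; 16.4 to 81.3 FPKM). All 12 tested host genes of abundant brain circular RNAs were higher (median 1.32), among them *Homer1* (11.3 to 53.5 FPKM) and *Dlgap1* (15.3 to 35.2 FPKM), scaffold proteins of excitatory synapses. At Zt+16 0 genes of these 3 lists passed the rule, beside 19.2% of all tested genes. Of the other genes named for cerebellar degeneration antigens, *Cdr2l* passed the rule at Zt+6 with a difference of 0.64 and *Cdr2*, at 0.14, did not: *Cdr2* was listed at 1.35, 1.59, 1.21 and 1.62 FPKM and *Cdr2l* at 2.45, 4.37, 2.29 and 3.48 FPKM in WT Zt+6, *Snord116del* Zt+6, WT Zt+16 and *Snord116del* Zt+16. No member of any list had a higher difference than *Cdr1* at Zt+6.

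Markers of cell types and regions were read beside *Cdr1*. Those of excitatory cortical neurons were present in all groups (*Camk2a* between 145.7 and 687.8 FPKM, *Slc17a7* between 60.3 and 126.9 FPKM). The most abundant of them, *Nrgn* (neurogranin), went the other way from *Cdr1* at Zt+6, with 642 FPKM in WT and 362 FPKM in *Snord116del*, and was listed at 786.9 and 1530.4 FPKM at Zt+16. The counts that follow are to be read beside the 49.3% of all tested genes that were higher and the 7.62% that were lower at Zt+6. At Zt+6 6 of 9 excitatory neuron markers were higher in *Snord116del* and 1 lower, and their summed level went from 1040 to 1302 FPKM at Zt+6 and from 1044 to 1924 FPKM at Zt+16. Of 9 inhibitory neuron markers 3 were higher and 3 lower, of 7 astrocyte markers 7 were higher, of 8 oligodendrocyte markers 4 were higher, of 6 microglial markers 4 were higher and of 5 endothelial markers 5 were higher. Of 7 striatal markers 5 were higher and 1 lower, of 4 hippocampal markers 1 was higher and 1 lower, and of 2 choroid plexus markers 1 was higher. Of the cerebellar markers 4 of 9 were tested and 3 of these were higher, but *Gabra6*, a marker specific to cerebellar granule cells, was at most 0.33 FPKM. No marker of these lists was listed at 0 in any group. Summed over each list in the order WT Zt+6, *Snord116del* Zt+6, WT Zt+16 and *Snord116del* Zt+16, the astrocyte markers came to 110.6, 315, 65.9 and 99.9 FPKM and the endothelial markers to 6.29, 21.5, 3.48 and 4.19 FPKM, the order of the *Cdr1* values for the highest and the lowest group. The microglial markers came to 30.6, 59.0, 29.2 and 46.9 FPKM and the cerebellar markers to 26.9, 77.8, 22.6 and 31.0 FPKM, with the same highest and lowest group. Most of the cerebellar sum was *Itpr1*, at 18.3, 59.5, 12.9 and 16.9 FPKM, so that its order is largely the order of this gene. The inhibitory markers came to 615, 467, 1023 and 1863 FPKM, the oligodendrocyte markers to 461.8, 724.5, 741.7 and 1064 FPKM, the striatal markers to 208.6, 194.3, 352.3 and 579.6 FPKM and the hippocampal markers to 39.9, 29.5, 47.3 and 62.4 FPKM, all highest in *Snord116del* Zt+16. The choroid plexus markers came to 203.9, 187.7, 26.8 and 32.0 FPKM, of which most was *Ttr*. This gene moved with time and not with *Cdr1* between genotypes: it was listed at 199.8 FPKM in WT and 181.7 FPKM in *Snord116del* at Zt+6, and at 24.9 and 29.6 FPKM at Zt+16. The part of these lists in the *Cdr1* values was not tested. The targeted gene gives a limited check of the labels, since *Snord116* was listed at 0 in every group; the neighbouring non-coding RNA *Ipw* was listed at 21.6 FPKM in WT and 3.40 FPKM in *Snord116del* at Zt+6 and at 3.17 and 1.82 FPKM at Zt+16.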

How the data were processed

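RNA-seq of mouse cortex (9 mice in 4 groups) and ChIRP-seq peak lists of 5 mouse brain libraries were analysed. Libraries for RNA-seq were made with the NuGEN Encore Complete kit. The submitters' processing notes name TopHat2 2.0.5, Cuffdiff 2.0.2, Bowtie2 2.0.0 and MACS 1.4.2, with mm9. The authors deposited 1 FPKM value per gene and group, with no value per mouse and no depth in the table. The study's methods give reads per library, which were not used here; group values show no spread between mice. The table also has the authors' log2 fold changes and q-values between groups, which were not used. For the peak lists the authors called peaks per library and kept those above a 20-fold enrichment over input at a false discovery rate below 5%; the deposited fold is a ratio, absent from WT *116HG* replicate 2, and is compared only within a list.

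The planned limma fit needed values per mouse, so the fold rule described with the results was used, without a test. Gene positions and lengths are from GENCODE on NCBIM37, the assembly of mm9; 21853 of 23235 table genes matched by symbol, and 98.7% of tested genes had a length. The rule for genes named was *Cdr1*, table genes within 1 Mb, the lists on miR-7, its targets and Cdr antigens, the most abundant members of other lists, the 8 genes nearest in pattern, and the 5 highest and 5 lowest like genes; genes that lie beyond *Cdr1* in a ranking, *1700020I14Rik* as next in pattern, *Ndn*, *C030046I01Rik* and *Nell2* as nearest like genes, *Ttn* and *Naf1* by seed matches, and *Gabra6* and *Ipw* as checks were named after their values were seen. Some genes that the rule names are not reported here. *Cdr1*, the lists and the rule were chosen with earlier results of these data known. Mature microRNA and promoter sequences are from RefSeq tables, and sites were read from NCBIM37. The fold rule was tested on simulated data. Python 3.11.15, numpy 2.4.6, pandas 2.3.3, scipy 1.17.1 and matplotlib 3.10.9 were used.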

Additional observations from a re-analysis of the deposited data

How the results depend on the processing

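The *Cdr1* differences between genotypes at Zt+6 (2.70 to 4.41 on the log2 scale), between times in WT (−4.03 to −2.23) and between times in *Snord116del* (−7.43 to −5.24) kept their direction and stayed past the fold rule under all 8 settings tried for each: pseudocounts of 0.1 and 5, groups scaled to the same median, upper quartile or sum, quantile normalization, subtraction of the like genes' median and a fold of 2. At Zt+16 the difference between genotypes of 0.75 kept its direction but lost the call with a pseudocount of 5 (0.33), the same median (0.44), the same upper quartile (0.37), the same sum (0.27), quantile normalization (0.39), the like genes' median subtracted (0.25) and a fold of 2 (0.75); it kept it with a pseudocount of 0.1 (1.05). The 8 other settings at Zt+6 defined the like genes otherwise, except the pseudocount of 0.1, which kept the same genes. *Cdr1* lay above all like genes under all 8 of these settings. At Zt+16 the 85.7% of like genes below it became 82.1% for genes like it in WT Zt+6 FPKM, 88.8% for abundance within 4-fold, 98.8% with a pseudocount of 0.1, 98.5% on chromosome X and 98.0% for genes like it in WT Zt+16 FPKM, a setting chosen after seeing the data. The 5858 genes past the rule at Zt+6 became 2390 with a mean of at least 5 FPKM and 3059 with a fold of 2. Scaling groups to the same median moved the median of all genes by −0.63 at Zt+6 and −0.34 at Zt+16, and turned the 5073 genes higher and 785 lower at Zt+6 into 1522 higher and 2493 lower; quantile normalization gave 2285 and 2121. The 35 replicate 1 peaks within 100 kb became 8 within 10 kb and 4 among the upper quartile by fold, and the counts of 0 in WT *116HG* replicate 2, WT NSC and *Snord116del* NSC became 2 each within 1 Mb. The 112 seed matches became 30 when the 8-base match was required. The causes of these changes were not tested. No paired analysis was possible because the table has 1 value per group and no column per mouse, and for the same reason no mouse could be left out.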

Other observations

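*Cdr1* was 71st of 10165 tested genes by the width of its widest WT *116HG* replicate 1 peak. The 70 genes with a wider peak were led by *Meg3* (an imprinted long non-coding RNA, 11007 bases), *Slc1a2* (the glutamate transporter of astrocytes, 9472 bases) and *Apc* (7718 bases). This group was defined after the peak values were seen, with the width of the *Cdr1* peak as its limit. It was drawn from the tested genes, whose mean FPKM over the same 4 groups reached 1. Of the 70, 63 were higher and 0 lower in *Snord116del* at Zt+6 (median log2 difference 1.5, beside 0.57 over all tested genes, of which 49.3% were higher). At Zt+16 11 were higher (15.7%) and 0 lower, a share below the 19.0% over all tested genes (median 0.43 beside 0.35). Between the times, 42 were lower and 1 higher at Zt+16 in WT (median −0.74 beside −0.04), where 10.3% of all tested genes were lower, and 58 were lower and 2 higher in *Snord116del* (−1.89 beside −0.24), where 39.1% were lower. *Meg3* was listed at 67.4 and 227.8 FPKM at Zt+6 and at 32.0 and 44.1 FPKM at Zt+16, in WT and *Snord116del*, and *Apc* at 9.77, 37.8, 4.57 and 5.20 FPKM in the same order. In WT *116HG* replicate 2, a shorter list, 0 of the 10165 tested genes had a peak wider than that of *Cdr1* in replicate 1. The share of exon bases under replicate 1 peaks rose with transcript level, and the 70 genes were not matched for level or length. The comparisons share groups in pairs, and none of these counts was tested.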
